A study of Mus musculus with 3 samples.

Results

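The cells described here are those of 4T1, an established mouse mammary carcinoma line that spreads to distant organs when grown in mice, run in the same droplet pools as cultured tumour cells. They were taken as the cells of the deposited annotation with no gel entry, whose mouse column reads "cell line". There were 313 of them among 7620 annotated cells, 98 in the day 0 pool, 196 in the day 3 pool and 19 in the day 5 pool. They were set against 6844 tumour culture cells with at least 1 Epcam UMI (a UMI is 1 counted RNA molecule), out of 7307 tumour culture cells in all.

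The 4T1 cells, bought as a stock line, were at passage 2 and grown on plastic in RPMI-1640 with 10% serum, with no gel and no FGF2, and were released with trypsin-EDTA. The tumour cells were uncultured at the start, came from 4 FVB mice of the C3(1)-Tag line aged 25 to 30 weeks with tumours of 20 mm, and were grown in collagen I or in Matrigel in serum-free medium with 2.5 nM FGF2. Gels were opened with collagenase or with EDTA, and the cells were separated with TrypLE. The day 0 pool was taken 12 h after plating, the others on days 3 and 5, and the labels give each pool a batch number of its own. That the earliest cells of the annotation, marked D1, are the day 0 sample is inferred by elimination. Day 5 held cells of 3 of the mice. For 4T1 a day names a pool and not a time in gel. 4T1 is 1 line, it comes from another strain (BALB/c), and line, strain, medium, serum, substrate and release differ together, so their parts in any difference cannot be told apart.

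As background, 4T1 cells are widely used as a model of metastatic mammary carcinoma that keeps epithelial traits while carrying vimentin. C3(1)-Tag mice express the SV40 large T antigen under a rat prostatic steroid-binding protein promoter that is active in mammary epithelium, and large T binds the p53 and retinoblastoma proteins. Epcam and the keratins mark epithelium, Krt14, Krt5 and Trp63 its basal layer, and Vim, Lgals1 and S100a4 are abundant in mesenchymal and migratory cells.

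The 4T1 cells were the deeper ones in each pool. Their median UMI counts were 83628, 69448 and 142627 on days 0, 3 and 5, against 16388.5, 37657 and 55186 in tumour cells, and their median mitochondrial shares were 5.27%, 3.86% and 5.43%, against 2.73%, 3.85% and 5.49%. Unsupervised clustering placed 310 of the 313 in 1 cluster of 367 cells. The other 57 cells of that cluster carried a mouse label, 42 of them on day 0, and 3 cells labelled 4T1 lay elsewhere, all on day 3. Barcodes shared between pools numbered 7 for days 0 and 3 and 4 for days 3 and 5, and none was that of a 4T1 cell. After thinning every cell to 2000 UMIs, an Epcam UMI was found in 45.9%, 34.0% and 36.8% of 4T1 cells on days 0, 3 and 5 (45 of 98, 66 of 194 and 7 of 19). In cells with macrophage markers, which should lack Epcam, it was found in 4.79% on day 0 (7 of 146 cells, median 15039.5 UMIs before thinning), in 0 of 25 on day 3 (exact upper 95% bound 13.7%) and in the 1 such cell of day 5. Without thinning an Epcam UMI was found in 300 of the 313 4T1 cells, against 29 of 151 macrophage-marker cells on day 0 and 12 of 26 on day 3. Macrophage, fibroblast, endothelial, T cell and B cell markers were near 0: the summed level of 10 macrophage markers was 4.03 to 7.05 CPM (UMIs scaled to library size) in 4T1 and 5.60 to 220.8 CPM in tumour sums. The part of such cells in the tumour values was not tested beyond leaving out every tumour cell with a UMI of Ptprc, Csf1r, Cd3e, Pdgfra or Pecam1. This gave 2829 genes higher and 3593 lower in 4T1. No 4T1 cell was left out in that step.

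Counts were summed into 1 profile per pool for 4T1 (8082060, 13640477 and 2665751 UMIs) and 1 per mouse and pool for tumour cells (11 sums of 109 to 1288 cells). Of 13755 genes tested with edgeR within pools, 2868 were higher in 4T1 (20.9%) and 3738 lower (27.2%) at an adjusted p under 0.05, together 48%. The 4T1 sum lay above every mouse of its pool in all 3 pools for 16.3% of genes and below every mouse for 22.8%. A change of at least 2-fold was found for 1253 higher genes (9.11%) and 2624 lower genes (19.1%). The list counts and the genes without overlap given below are to be read against these shares of all genes. Without the cells whose label and cluster differed, 2856 genes were higher and 3774 lower. Scaling by library totals instead of by TMM moved the median log2 fold change of all genes to -0.51, against -0.10, and gave 1391 higher and 6159 lower genes, so that 18.4% of calls were higher instead of 43.4%. Mice recur across pools, and the test took their sums as independent. With 1 sum per mouse, 4 mice against the 3 4T1 sums and no pool block gave 2163 higher and 3118 lower genes. The p-values measure the spread among these mice and among pools of 1 line, not among lines.

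**Figure D1:**
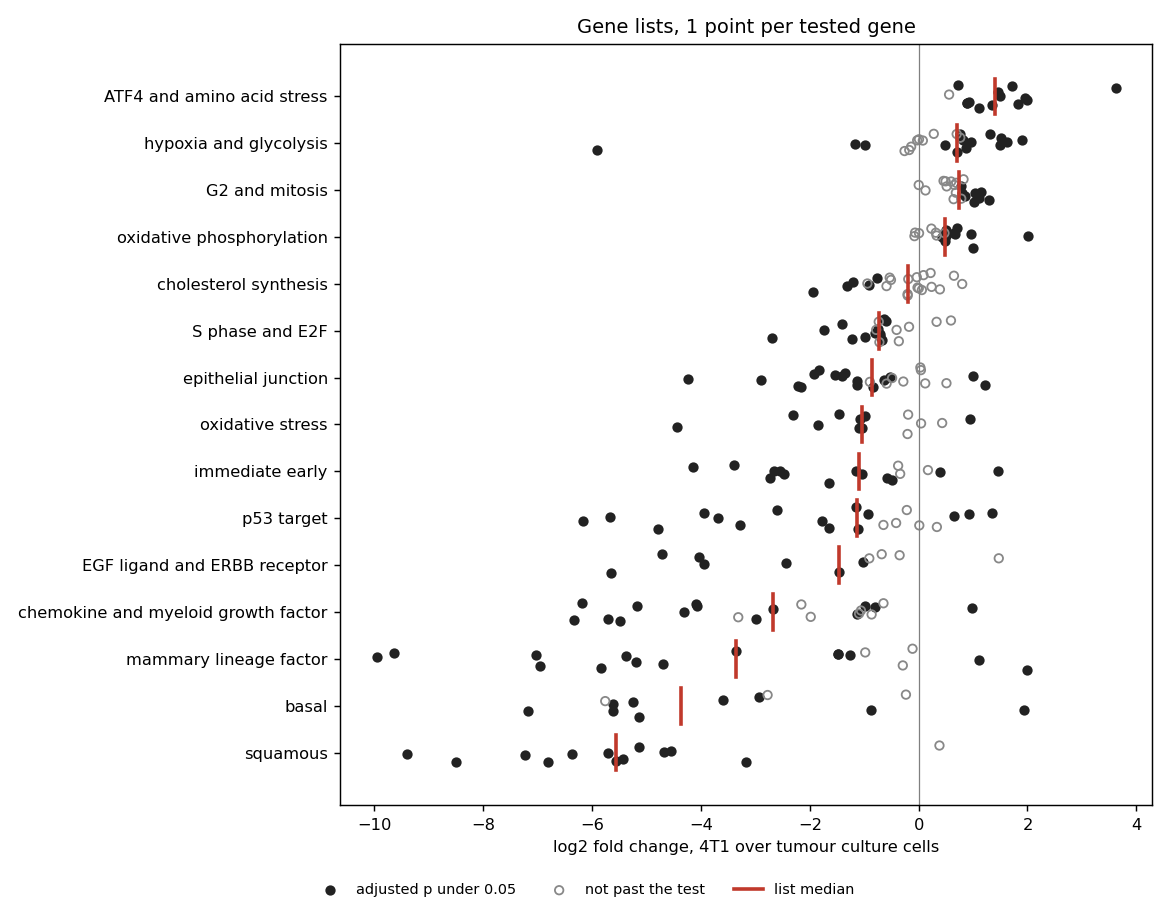
Each point is 1 tested gene of a list, placed at its log2 fold change of 4T1 over tumour culture cells (horizontal axis); filled points passed the edgeR test, open ones did not, and red bars are list medians. Squamous and basal genes lie far to the left, and 13 of the 14 ATF4 genes are filled and to the right.

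Vim, the intermediate filament of mesenchymal cells, was at 4385, 2971 and 2894 CPM in the 4T1 sums of days 0, 3 and 5, and at 167, 446 and 1476 CPM (lowest, median, highest) in tumour sums. Lgals1, which encodes galectin-1, was at 9501, 8947 and 9761 CPM in 4T1, against 371, 1559 and 2325 CPM. In both genes the lowest 4T1 sum lay above the highest tumour sum, with log2 fold changes of 2.76 ± 0.45 (SE) for Vim (adjusted p = 0.000213) and 2.93 ± 0.27 for Lgals1 (adjusted p = 1.57e-06). Without the cells whose label and cluster differed they were 3.71 for Vim and 3.70 for Lgals1. S100a4, a calcium-binding protein linked to metastasis, was at 698, 78.8 and 582 CPM in 4T1, against 24.5, 58.6 and 94.6 CPM. On day 3 its 4T1 level was within the range of the tumour sums of other days, though above the 4 mice of its own pool (log2 fold change 2.74 ± 0.31, adjusted p = 9.62e-06; 3.39 without the cells whose label and cluster differed).

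Krt14, a basal keratin, ran the other way, with 111, 47.0 and 160 CPM in 4T1 against 689, 1144 and 2629 CPM in tumour sums, and no overlap (log2 fold change -3.60 ± 0.39, adjusted p = 7.31e-06). Epcam was at 551, 333 and 393 CPM in 4T1, against 868, 1664 and 2184 CPM; since Epcam chose the tumour cells, this is a description only. After thinning every cell to 2000 UMIs, a Vim UMI was present in 88.8% ± 5.48 of 4T1 cells (SD, 3 pools) and in 26.2% ± 10.5 of tumour cells (SD, 4 mice), and a Krt14 UMI in 17.1% ± 17.1, against 60.6% ± 6.22. Each mouse's share is its mean over its pools, and mouse 4 had no cells on day 5. By day, the Vim share of single mice was 9.55 to 16.6% on day 0, 14.9 to 47.4% on day 3 and 39.0 to 57.4% on day 5. That of 4T1 was 93.9%, 83.0% and 89.5%. In this draw the Krt14 share of 4T1 was 36.8% of the 19 cells of day 5, against 7.14% on day 0 and 7.22% on day 3. The day 5 value depended on the draw: thinned to 5000 UMIs, the 3 pools of 4T1 ran between 14.6% and 17.3%. Another draw of 2000 UMIs, without the cells whose label and cluster differed, gave 6.77% to 21.1%. A Lgals1 UMI was present in 100% ± 0 of 4T1 cells and in 67.2% ± 3.11 of tumour cells. An S100a4 UMI was present in 39.5% ± 26.7 of 4T1 cells (57.1%, 8.76% and 52.6% by pool) and in 7.73% ± 1.17 of tumour cells, with an exact permutation p of 0.114. The same test gave 0.0571 with cells thinned to 1000 or 5000 UMIs, without thinning, and without the cells whose label and cluster differed. It gave 0.171 when at least 2 UMIs were required. The Vim, Lgals1 and Krt14 differences had the smallest p that an exact two-sided permutation test of 3 against 4 can give (0.0571, adjusted over 4 markers 0.0762), so no marker share can pass 0.05 in this design. Without thinning the Krt14 shares were 79.3% in 4T1 and 90.6% in tumour cells. In cells with macrophage markers of the day 0 pool, which should lack Krt14, a thinned Krt14 UMI was present in 6 of 146 cells, or 4.11% (exact 95% interval 1.52 to 8.73%, depth 15039.5 UMIs at the median). Among 4T1 cells of that pool it was present in 7 of 98, or 7.14% (2.92 to 14.2%).

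**Figure D2:**
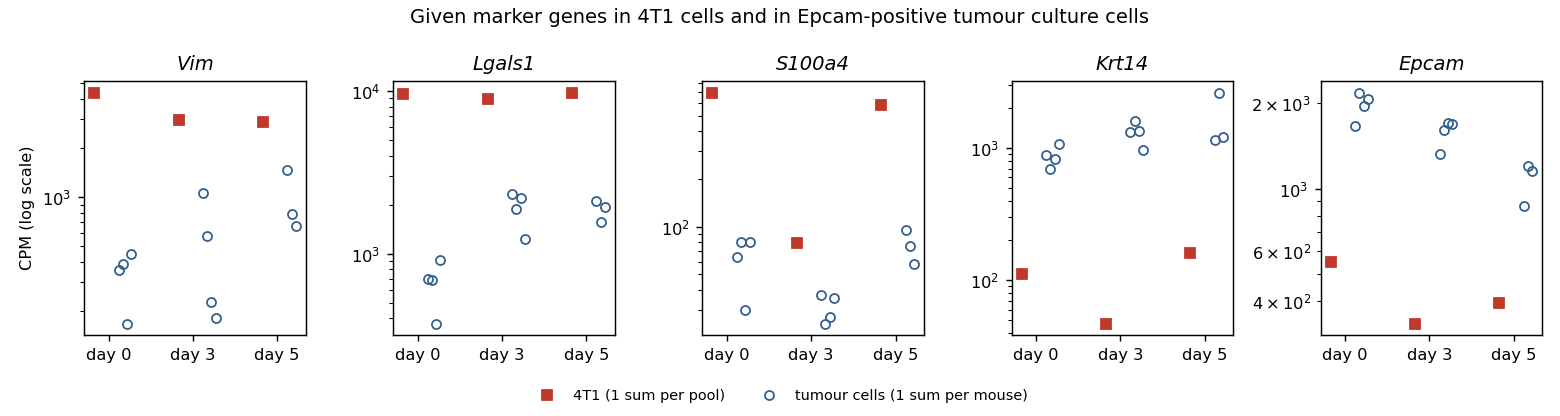
Level in CPM (log scale) of the 5 marker genes by pool; red squares are the 4T1 sums, 1 per pool, and open circles the tumour sums, 1 per mouse. 4T1 lies above every mouse for Vim, Lgals1 and S100a4 and below every mouse for Krt14 and Epcam in all 3 pools, and its S100a4 level is lowest on day 3.

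The mesenchymal list did not move in 1 direction. Of 19 tested genes of the mesenchymal list, 5 were higher (Vim, Lgals1, S100a4, Axl and Cald1) and 6 lower, with a list median of -1.69 against -0.10 for all genes. Axl, a receptor tyrosine kinase, was at 208, 159 and 232 CPM in 4T1 and at 52.9, 68.5 and 116 CPM in tumour sums (log2 fold change 1.39 ± 0.13, adjusted p = 1.67e-06). The 6 lower genes were the cadherin Cdh2, the collagen chain Col1a2, fibrillin (Fbn1), tenascin (Tnc), Fstl1 and Bgn, and fibronectin (Fn1) did not pass the test (-0.27 ± 0.18, adjusted p = 0.23). Among 10 transcription factors of the epithelial-mesenchymal transition, Tcf4 and Foxc2 were higher and Snai2, Zeb1, Twist2 and Prrx1 lower; without the day 0 pool none was higher and 3 were lower. Snai2, which encodes Slug, had 0, 1 and 2 UMIs in the 3 4T1 sums, and Zeb1 had 7, 7 and 1. Foxc2 was at 10.9, 3.65 and 6.47 CPM in 4T1, above all mice of each pool, where tumour sums ran between 0.154 and 2.71 CPM. Twist1 was at 69.5, 67.2 and 44.4 CPM in 4T1, inside a wide tumour range of 1.70 to 84.8 CPM that mouse 2 topped on day 0.

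Epithelial genes went both ways. Krt8, Krt18 and Krt7, the keratins of simple epithelium, did not pass the test, and Krt19 was higher (108, 87.9 and 82.3 CPM in 4T1, against 14.9, 50.2 and 67.0 CPM, log2 fold change 1.02 ± 0.28, adjusted p = 0.00802), a call that was lost without the day 0 pool and with library totals. Cdh1, which encodes E-cadherin, was at 69.7, 61.1 and 60.4 CPM in 4T1, within the tumour range of 38.4 to 154 CPM (log2 fold change 0.04 ± 0.28, adjusted p = 0.917; the sign turned with library totals, -0.37). Of 24 junction genes, 2 were higher (Tjp1 and the protease inhibitor Spint1) and 14 lower, among them the claudin Cldn7, desmoplakin (Dsp), the epithelial splicing factor Esrp1 and Epcam itself. Their sizes varied: Cldn7 differed by -1.14 ± 0.23, Esrp1 by -0.83 ± 0.15 and the desmosomal plakophilin Pkp1 by -4.23 on the log2 scale.

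Basal, squamous and mammary lineage genes were mostly lower in 4T1, many of them near 0. Of 12 basal genes 8 were lower and 1 higher (median -4.37), and of 13 squamous genes 12 were lower and none higher (median -5.57, or -5.13 with the 2 genes that had no UMI in 4T1 set to their limit). Trp63, the master regulator of basal epithelium, had 1, 1 and 0 UMIs in the 4T1 sums, against 1.80, 17.6 and 27.4 CPM in tumour sums (log2 fold change -7.17 ± 1.05, adjusted p = 9.41e-05). Krt17 was at 11.4, 9.94 and 13.4 CPM in 4T1, against 332, 443 and 1155 CPM (-5.61 ± 0.45, adjusted p = 5.9e-07). Dst, a linker of keratin to adhesion sites, was the 1 basal gene that was higher, at 135, 191 and 119 CPM in 4T1 against 24.1, 39.8 and 51.7 CPM (1.93 ± 0.20, adjusted p = 4.96e-06). The squamous genes included Ly6d, a surface marker of stratified epithelium, at 1.34, 7.10 and 4.31 CPM in 4T1 and 111, 322 and 532 CPM in tumour sums.

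Of 17 mammary lineage factors, 12 were lower and 2 higher (median -3.36). Irx5, a homeobox factor, was at 0.149, 1.12 and 0 CPM in 4T1, against 56.6, 70.2 and 96.1 CPM (log2 fold change -7.03 ± 0.39, adjusted p = 3.92e-08). Ehf and Sox10, an epithelial ETS factor and a progenitor factor, were at most 0.862 and 1.02 CPM in 4T1 and at least 18.2 and 3.04 CPM in tumour sums. Elf5, the factor of alveolar cells, had no UMI in any 4T1 sum, and against the limit of 3 counts over the 3 sums it was at least 49.2-fold lower in 4T1. The 2 higher factors were Gata3 and Esr1. Gata3, a luminal factor, was at 97.0, 54.3 and 91.0 CPM in 4T1 and 17.4, 41.5 and 54.5 CPM in tumour sums (1.10 ± 0.22, adjusted p = 0.000994). Esr1, the oestrogen receptor, was low in both, at 4.90, 6.19 and 4.31 CPM in 4T1 against 0.469, 1.22 and 2.37 CPM (2.00 ± 0.35, adjusted p = 0.000421). Secreted mammary proteins were lower in 6 of 11 cases and higher in none, as with lipocalin (Lcn2) at 20.4, 14.7 and 22.4 CPM in 4T1 against 210, 1165 and 1993 CPM.

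The genes with the highest fold changes in 4T1 included 4 of the HoxA cluster, homeobox genes that set position along the body axis. Hoxa10 (chromosome 6, 52231197 to 52240854, GRCm38) was at 36.0, 23.03 and 27.6 CPM in 4T1 and at 0.099, 0.306 and 4.29 CPM in tumour sums (log2 fold change 5.93 ± 0.54, adjusted p = 1.61e-06). Hoxa5 was at 100, 52.2 and 114 CPM in 4T1, against 0.154, 3.21 and 8.41 CPM (4.85 ± 0.44, adjusted p = 1.48e-06). The highest tumour values of both were those of mouse 4 on day 0, and without the cells whose label and cluster differed the log2 fold changes were 7.94 for Hoxa10, 6.07 for Hoxa5 and 7.21 for Hoxa7. Hoxa7 and Hotairm1, a noncoding RNA of the cluster, were the other 2. The expression was uneven along the cluster: Hoxa4 had 4, 2 and 2 UMIs in the 4T1 sums, Hoxa9 had 3, 8 and 3, and Hoxa13 had 0, 4 and 0. Hotairm1 was at 71.5, 172 and 68.5 CPM in 4T1 and at 3.39, 5.85 and 10.2 CPM in tumour sums. Transcripts of both strands overlap in this cluster, and the sources used here do not say how the counting split them.

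**Figure D3:**
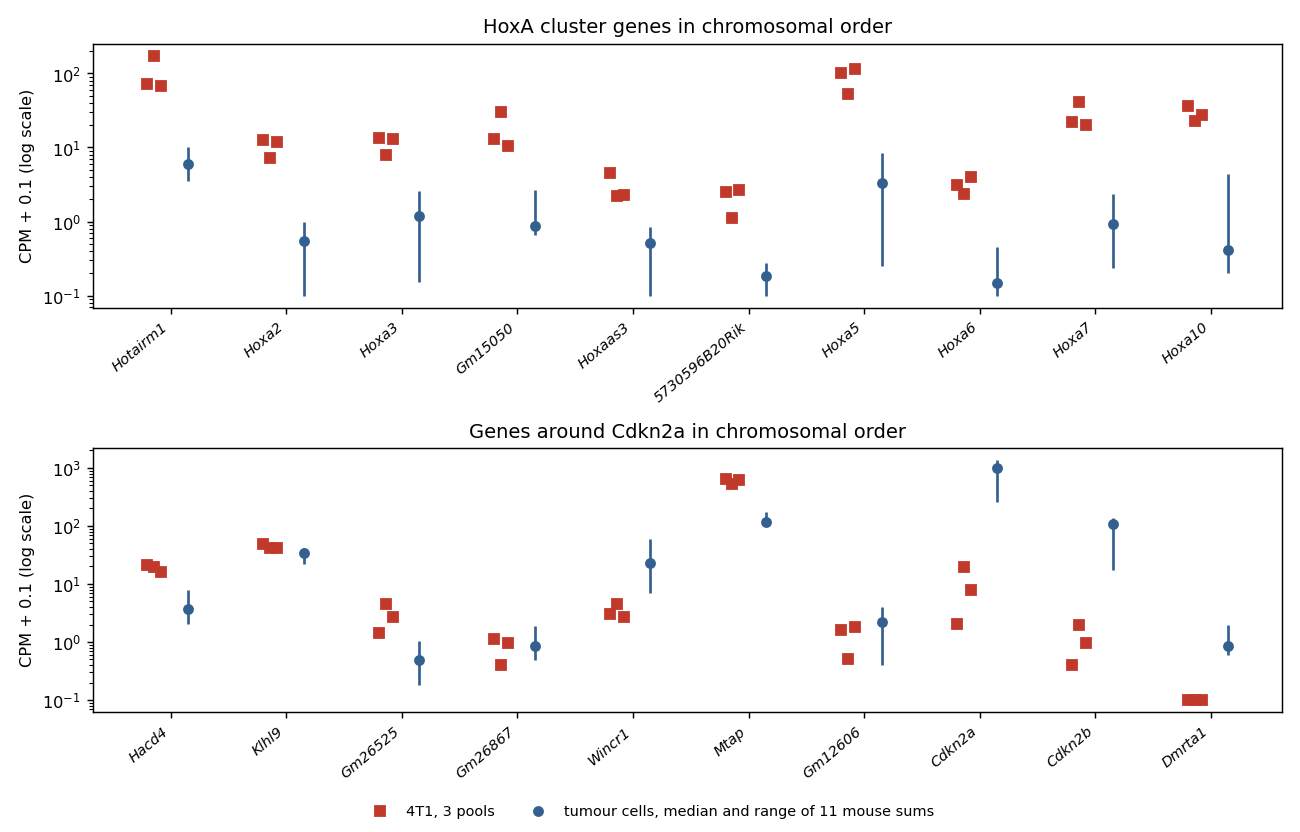
Level in CPM plus 0.1 (log scale) of genes of the HoxA cluster (top) and around Cdkn2a (bottom), in chromosomal order; red squares are the 3 4T1 sums, and blue points and lines the median and range of the 11 tumour sums. The 4T1 squares lie above the tumour ranges for every HoxA gene drawn and for Hacd4, Gm26525 and Mtap. They lie below them for Wincr1, Cdkn2a, Cdkn2b and Dmrta1.

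Other genes at the top of the order were the natriuretic peptide receptor Npr3 (32.0, 27.1 and 44.4 CPM in 4T1, against 0.095, 0.633 and 3.77 CPM), the intestinal surface antigen gene Gpa33 (43.5, 33.7 and 37.5 CPM, against 0.051, 0.625 and 3.33 CPM) and the muscle enolase Eno3 (201, 359 and 202 CPM, against 2.93, 9.50 and 20.9 CPM). Their log2 fold changes were 5.82 ± 0.46, 5.37 ± 0.48 and 4.85 ± 0.35 (adjusted p of 4.96e-07, 1.35e-06 and 2.8e-07), and without the cells whose label and cluster differed they were 6.61, 6.85 and 5.74. Tpm3-rs7, also among them, is a copy of the tropomyosin gene Tpm3, so its reads may have been shared between copies and its value is uncertain. At the other end stood 2 secreted proteins of TGF-beta family signalling. Fst, which encodes follistatin, was at 1.49, 6.09 and 4.31 CPM in 4T1 and at 206, 312 and 519 CPM in tumour sums (-6.51 ± 0.33, adjusted p = 1.91e-08), and Bmp2 had 0, 4 and 0 UMIs in 4T1 (-6.55 ± 0.76, adjusted p = 1.24e-05). Xist, the RNA that coats the silenced X chromosome of female cells, was at 4.01, 9.44 and 9.05 CPM in 4T1, against 544, 680 and 1259 CPM (-6.73 ± 0.42, adjusted p = 8.63e-08). Peg3, an imprinted gene, had a total of 1 UMI over the 3 4T1 sums and at least 5.17 CPM in each tumour sum.

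Cdkn2a, which encodes the cell cycle brakes p16Ink4a and p19Arf, was at 1.93, 19.9 and 7.76 CPM in 4T1 and at 263, 987 and 1345 CPM in tumour sums (log2 fold change -6.53 ± 0.29, adjusted p = 1.02e-08). Its neighbour Cdkn2b, which encodes p15, was at 0.297, 1.83 and 0.862 CPM in 4T1, against 17.2, 108 and 139 CPM (-6.22 ± 0.46, adjusted p = 3.25e-07). The genes around them went both ways, with Wincr1 at 2.97, 4.36 and 2.59 CPM in 4T1 and at 6.79, 22.6 and 59.6 CPM in tumour sums. Mtap (chromosome 4, 89137122 to 89181081), the enzyme gene beside Cdkn2a (89274471 to 89294653), was higher, at 654, 536 and 619 CPM in 4T1 against 109, 118 and 174 CPM (2.22 ± 0.13, adjusted p = 4.63e-08; chosen after its values were seen). Klhl9 was at 49.6, 40.9 and 41.4 CPM in 4T1 and at 21.9, 33.8 and 41.0 CPM in tumour sums. The few Cdkn2a UMIs of 4T1 lay mostly in the day 3 pool (13, 196 and 18), and after thinning a Cdkn2a UMI was found in 0 of 98, 7 of 194 and 0 of 19 cells, against 41.8 to 87.2% of tumour cells by mouse and pool. Free RNA of tumour cells in the droplets was not tested as their source.

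Genes induced by p53, the damage-response factor, were mostly low: 12 of 20 were lower in 4T1 and 3 higher (median -1.14). Cdkn1a, which encodes the inhibitor p21, was at 19.2, 18.1 and 11.2 CPM in 4T1 and at 164, 391 and 890 CPM in tumour sums (-4.78 ± 0.37, adjusted p = 4.13e-07). Gdf15, a stress-induced secreted factor, was at 0.594, 4.16 and 1.72 CPM in 4T1, against 47.8, 109 and 174 CPM. Trp53 itself was lower too, at 57.5, 97.8 and 66.0 CPM against 122, 165 and 246 CPM (-1.21 ± 0.21, adjusted p = 0.000356). The 3 higher members were Bbc3, which encodes the cell death protein Puma, Ei24 and Rrm2b. Ei24 lies between 30 and 40 Mb of chromosome 9, where 17 of 24 genes were higher. Rrm2b lies between 30 and 40 Mb of chromosome 15, where 23 of 31 were higher. Among all genes averaging at least 5 CPM in both cell types, as counted here, 25.8% were higher. The part of location was not tested.

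Cyclins of the G1 phase went both ways. Of the 16 genes of a list of cell cycle inhibitors, suppressors, Myc, D-type cyclins and their kinases 6 were higher and 5 lower, while the E-type cyclin genes Ccne1 and Ccne2 were lower. Ccnd2, a D-type cyclin, was at 112, 172 and 78.9 CPM in 4T1, against 1.49, 8.29 and 13.1 CPM (log2 fold change 4.02 ± 0.35, adjusted p = 1.23e-06; 4.68 without the cells whose label and cluster differed). Ccnd3 did not pass the test. Ccnd1 was at 998, 810 and 844 CPM in 4T1 and at 137, 310 and 610 CPM in tumour sums (1.42 ± 0.28, adjusted p = 0.00108), and Cdk4, the kinase of the D-type cyclins, was at 429, 436 and 416 CPM, against 143, 208 and 247 CPM (1.14 ± 0.13, adjusted p = 1.05e-05). Myc differed by 1.14 ± 0.27 (adjusted p = 0.00352). Of 20 genes of S phase and E2F, the factor that retinoblastoma protein holds back, none was higher and 12 were lower (median -0.72), while of 20 genes of G2 and mitosis 8 were higher and none lower (median 0.74). Both counts depended on the pools used. Without day 0 or without day 3, 5 S phase genes were lower, and without day 5, 14 were. Mitotic genes that were higher numbered 1 without day 0, 12 without day 3 and 5 without day 5. Top2a, a mitotic topoisomerase, was at 581, 183 and 563 CPM in 4T1 and at 140, 210 and 259 CPM in tumour sums, so that 4T1 was above all mice on days 0 and 5 and below them on day 3.

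Of 11 tested EGF ligands and receptors 7 were lower and none higher, and of 15 genes of FGF receptors and ERK feedback 6 were lower and 2 higher. Without day 0, 3 of the 15 were lower and 1 higher. Among all genes tested 27.2% were lower and 20.9% higher. Egfr, the EGF receptor, was at 0.892, 1.02 and 0.431 CPM in 4T1 and at 8.81, 14.2 and 19.5 CPM in tumour sums (log2 fold change -3.94 ± 0.35, adjusted p = 1.44e-06). Its ligand Areg was at 42.1, 56.4 and 25.0 CPM in 4T1, against 284, 631 and 1235 CPM (-4.03 ± 0.51, adjusted p = 2.93e-05). Fgfr1, a receptor for FGF2, was at 1.04, 1.83 and 2.16 CPM in 4T1, against 47.0, 65.8 and 84.5 CPM (-5.35 ± 0.29, adjusted p = 3.48e-08). FGF2 was in the medium of the tumour cells and not in that of 4T1, and its part was not tested. Immediate early genes, which switch on within minutes of a stimulus or of handling, were lower in 11 of 16 cases and higher in 2, and none was higher without day 3 or without day 5. Fos was at 3.86, 5.68 and 6.04 CPM in 4T1, against 21.99, 90.0 and 133 CPM (-4.14 ± 0.48, adjusted p = 1.38e-05).

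Of 21 chemokine and myeloid growth factor genes 13 were lower and 1, Csf1, was higher (median -2.68), and none was higher without day 3. Cxcl1, which draws neutrophils, was at 32.7, 24.7 and 28.5 CPM in 4T1, against 243, 365 and 1233 CPM in tumour sums (-4.07 ± 0.47, adjusted p = 1.17e-05). Csf1, the macrophage growth factor, was at 74.2, 117 and 64.2 CPM in 4T1, against 20.2, 48.5 and 58.2 CPM (0.97 ± 0.25, adjusted p = 0.00541). Of 20 interferon response genes 9 were lower and 2 higher (median -0.81). Without day 0 or without day 5, 1 interferon gene was higher. Of 16 antigen presentation genes 6 were lower and 1 higher, with a median of -0.085 against -0.10 for all genes. Among all genes tested 27.2% were lower and 20.9% higher. The higher antigen presentation gene was Psmb10, an immunoproteasome subunit, at 155, 123 and 160 CPM in 4T1 and at 26.9, 42.9 and 66.4 CPM in tumour sums (1.77 ± 0.19, adjusted p = 5.69e-06).

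Matrix genes went both ways. Of 16 basement membrane genes 5 were higher and 5 lower, where 20.9% of all genes tested were higher and 27.2% lower. Col4a1, a collagen IV chain, was at 109, 103 and 90.5 CPM in 4T1, against 4.97, 9.97 and 18.1 CPM in tumour sums (3.35 ± 0.24, adjusted p = 2.8e-07), while Lamb3, a chain of laminin-332, was at 14.1, 10.9 and 18.97 CPM, against 62.1, 101 and 182 CPM (-2.94 ± 0.32, adjusted p = 7.48e-06). Of 20 matrix proteases and inhibitors 4 were higher and 12 lower, and without day 0, 2 were higher and 9 lower; without day 3, 4 were higher and 8 lower. The gelatinase Mmp9 was at 51.4, 14.6 and 43.1 CPM in 4T1, above all mice on days 0 and 5, against 0.257, 5.07 and 29.3 CPM (2.30 ± 0.84, adjusted p = 0.0367). The 19 matrix receptors held 3 higher and 8 lower genes. Itga3, the integrin alpha 3 chain, was at 201, 130 and 182 CPM in 4T1, against 37.9, 48.3 and 67.7 CPM (1.76 ± 0.16, adjusted p = 1.83e-06), and the hyaluronan receptor Cd44 was at 68.2, 61.9 and 75.4 CPM, against 148, 238 and 271 CPM (-1.69 ± 0.19, adjusted p = 8.34e-06).

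ATF4, a transcription factor made when amino acids run short, drives genes of amino acid uptake and synthesis through DNA elements it binds with C/EBP partners. Of the 14 genes of this list 13 were higher in 4T1 and none lower, with a median of 1.4 against -0.10 for all genes. The 1 gene that did not pass the test was Atf4 itself. Higher members numbered 9 without day 3, 10 without day 5 and 9 with library totals. With tumour cells summed to 1 profile per pool, 8 were higher. RefSeq promoters were held for 13 of the 14, and the letters TGATGNAA, a form of that element, were found on either strand in 4 of them (Aars, Asns, Atf3 and Chac1), against 3.91% of 27025 genes with a promoter of the same 250 bases. The 3 promoters shown end at the base before the RefSeq start site and read along the gene's strand, with the match in capitals; a match is a description and not a binding site. They stand at chr6:7693210-7693459 (Asns, minus strand), chr2:119350992-119351241 (Chac1, plus strand) and chr1:191183334-191183583 (Atf3, minus strand) of GRCm38.p6.
Asns: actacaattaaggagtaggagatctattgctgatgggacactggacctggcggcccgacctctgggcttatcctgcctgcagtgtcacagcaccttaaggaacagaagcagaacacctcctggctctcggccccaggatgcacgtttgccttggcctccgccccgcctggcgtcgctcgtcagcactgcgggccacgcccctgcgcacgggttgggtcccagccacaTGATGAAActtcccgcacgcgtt
Chac1: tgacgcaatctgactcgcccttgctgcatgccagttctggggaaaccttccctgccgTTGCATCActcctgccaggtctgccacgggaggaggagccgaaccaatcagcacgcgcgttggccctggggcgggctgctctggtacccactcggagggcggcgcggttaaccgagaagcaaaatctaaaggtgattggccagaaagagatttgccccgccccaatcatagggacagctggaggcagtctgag
Atf3: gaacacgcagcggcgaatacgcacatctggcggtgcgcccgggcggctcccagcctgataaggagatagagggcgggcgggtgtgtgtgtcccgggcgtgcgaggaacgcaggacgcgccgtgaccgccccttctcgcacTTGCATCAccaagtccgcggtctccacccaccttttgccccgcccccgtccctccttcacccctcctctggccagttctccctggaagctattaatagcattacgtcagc

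Asns, which makes asparagine, was at 330, 794 and 488 CPM in 4T1 and at 103, 159 and 310 CPM in tumour sums (log2 fold change 1.71 ± 0.26, adjusted p = 0.000119). Chac1, which breaks down glutathione, was at 53.1, 61.0 and 53.9 CPM in 4T1, against 7.86, 15.1 and 27.6 CPM (1.96 ± 0.22, adjusted p = 9.54e-06). Slc7a5, a transporter of large amino acids, was at 128, 101 and 129 CPM in 4T1, against 3.98, 7.28 and 35.3 CPM (3.62 ± 0.29, adjusted p = 5.82e-07). None of these 3 overlapped between 4T1 and tumour sums. Of all genes tested, 16.3% lay above every mouse of the pool in all 3 pools. Atf3, a stress factor, was above all mice on days 3 and 5 and below them on day 0 (1.45 ± 0.53, adjusted p = 0.0353). Of 18 genes of oxidative phosphorylation 11 were higher and none lower, but with library totals 3 were higher and 2 lower, and without day 0, 5 were higher. Of 23 genes of glycolysis and hypoxia 11 were higher and 3 lower, but without day 0, 2 were higher and 4 lower, and with library totals 4 were higher and 4 lower. Oxidative stress genes were lower in 8 of 13 cases and higher in 1.

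The 4T1 cells of the day 3 pool stood apart from those of days 0 and 5. Each pool gives 1 sum, so these are ratios of single samples with no test, and pool, batch and harvest cannot be told apart. Past 2-fold, with 5 CPM added to each level, 269 genes of 9191 were higher on day 3 than on day 0 (2.93%) and 326 lower (3.55%). Day 5 against day 3 gave 310 higher (3.44%) and 438 lower (4.86%) of 9014 genes, and day 5 against day 0 gave 32 higher (0.379%) and 20 lower (0.237%) of 8454. With library totals the splits were 143 higher and 452 lower for day 3 over day 0, 498 and 157 for day 5 over day 3, and 35 and 15 for day 5 over day 0. The labels do not say whether the 4T1 cells of the pools came from 1 culture.

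Snhg12, Atf3 and Trib3 were highest in 4T1 on day 3, whereas Chac1 of the ATF4 list was at 53.05, 61.0 and 53.9 CPM on days 0, 3 and 5. Snhg12, a noncoding host of small nucleolar RNAs, was at 172, 1207 and 158 CPM in 4T1 on days 0, 3 and 5, with an exact 95% counting interval of 1185 to 1229 CPM on day 3, and at 17.7 to 69.3 CPM in all tumour sums. Atf3 was at 40.7, 250 and 47.0 CPM in 4T1, while in tumour sums it was at 94.9 to 143 CPM on day 0, 25.9 to 40.4 CPM on day 3 and 20.0 to 32.0 CPM on day 5. Trib3, an ATF4-induced pseudokinase, was at 84.3, 195 and 68.1 CPM in 4T1. The tumour cells of the same pool showed no such level on day 3 for these 3 genes.

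On day 3 none of 22 genes of cholesterol synthesis was above the tumour mean of that pool in 4T1. Idi1, an enzyme of the cholesterol pathway, was at 141, 12.7 and 112 CPM in 4T1, while tumour sums ran between 152 and 320 CPM on day 3. The 22 cholesterol genes had a median log2 difference from the tumour mean of 0.84 on day 0, -1.97 on day 3 and -0.35 on day 5, and over all pools 5 were lower and none higher, against 4 higher and 3 lower without day 3, 13 lower without day 0 and 2 lower without day 5. Tumour levels varied too. Summed over the list and scaled to library totals, they ran between 915 and 3402 CPM, and those of 4T1 between 471 and 1631 CPM. A change of the tumour cells between pools therefore enters these differences. Tuba1a, an alpha tubulin, was at 287, 35.3 and 303 CPM in 4T1. Rrm2, a ribonucleotide reductase subunit of S phase, was at 157, 31.4 and 210 CPM in 4T1, and S100a4 was likewise lowest on day 3. Some genes moved with the pool in both cell types. Nme2, a nucleoside diphosphate kinase, was at 18.7, 831 and 416 CPM in 4T1, while tumour sums were at 6.396 to 13.5 CPM on day 0, 346 to 516 CPM on day 3 and 226 to 243 CPM on day 5. Nme2 has a close paralog, Nme1, and its counts may share reads with it.

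**Figure D4:**
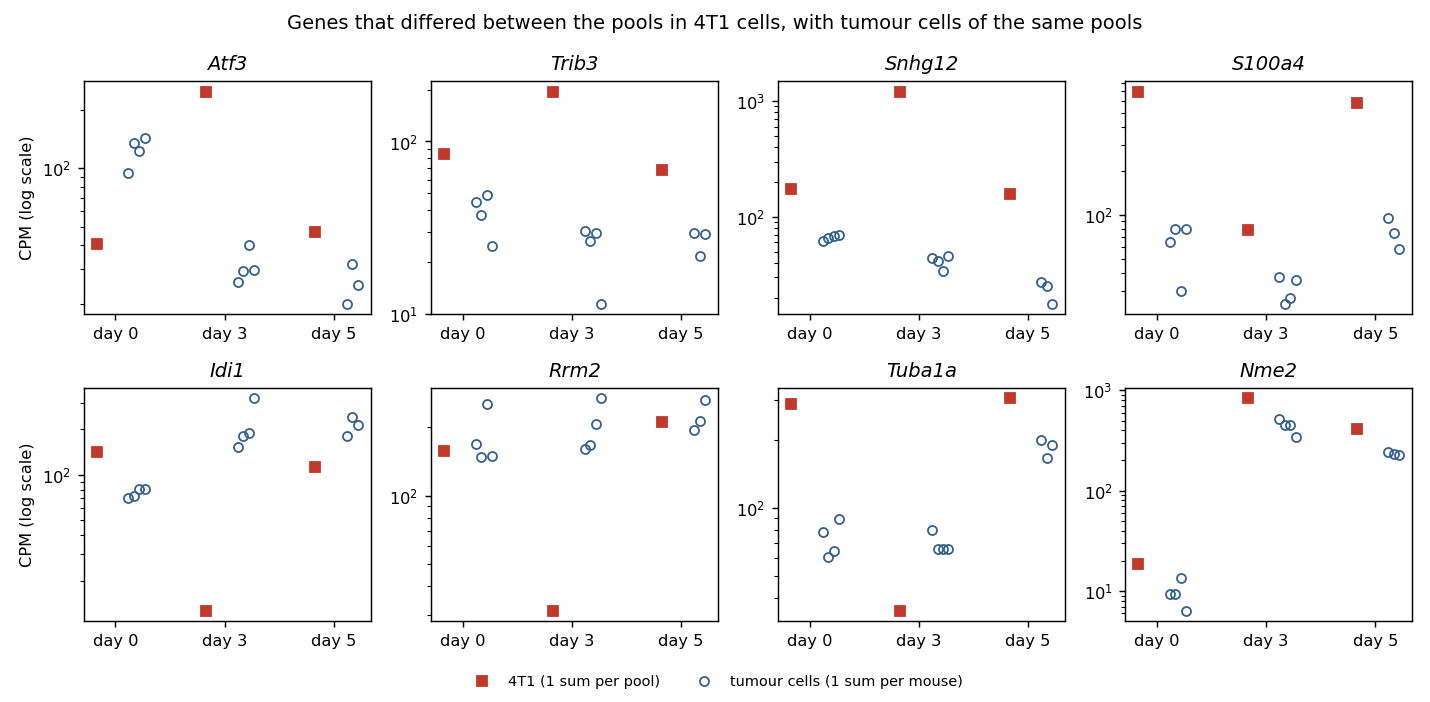
Level in CPM (log scale) by pool of 8 genes, with red squares for the 4T1 sums and open circles for the tumour sums of each mouse. Atf3, Trib3 and Snhg12 peak on day 3 in 4T1 alone, S100a4, Idi1, Rrm2 and Tuba1a dip there, and Nme2 follows the pool in both.

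Within a pool, 4T1 cells varied most in a few genes. Cells were thinned to 20000 UMIs, which kept 96 of 98 on day 0 and 184 of 196 on day 3, and genes were ordered by their variation beyond counting. Ccl5, a chemokine, ranked 1 of 4667 on day 0, with 78 of 96 cells at 0 UMIs and a highest cell of 57. Spp1, which encodes osteopontin, reached 123 UMIs in a cell, with 16 of 96 at 0 (both chosen after their values were seen). Krt14 ranked 3 on day 0, where 6 of 96 cells had 10 or more UMIs and held 113 of the 174 Krt14 UMIs (64.9%). On day 3 no cell of 184 reached 10. For Cdkn2a and Xist those 6 cells were at the low levels of other 4T1 cells. Their mean thinned counts were 18.8 UMIs for Krt14, 0 for Cdkn2a and 0 for Xist, and those of 1035 tumour cells of that pool were 18.1, 6.90 and 16.3 UMIs. Their mean Vim count was 17.5 UMIs, against 79.1 UMIs in the other 90 4T1 cells, and no doublet caller was run.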

How the data were processed

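Single-cell RNA of 3 pools was measured with 10x Single Cell 3' v2 libraries and MULTI-seq barcodes, per the labels' protocols. The authors deposited raw UMI counts per gene and cell, with a cell annotation that holds each cell's label, total count and mitochondrial share as a fraction (0 to 1). Cell Ranger 3.0.2, Scanpy 1.4.4, GRCm38 and mm10 are named in the submitters' processing notes; how cells were filtered and barcodes called is not stated there. All 39668312 entries were whole. Of 20605 gene IDs, 20574 were matched to GENCODE vM21 for coordinates.

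Counts were summed per pool (4T1) or per mouse and pool (tumour cells with at least 1 Epcam UMI) and tested with edgeR 4.0.16 (quasi-likelihood, TMM, filterByExpr, pool as a block, Benjamini-Hochberg) in R 4.3.3. Levels are counts scaled to TMM library sizes (edgeR CPM). Pool numbers pair 4T1 and tumour sums because both were loaded together. The p-values measure the spread between these sums, which for 4T1 may be technical. Shares used cells thinned to 2000 UMIs and exact permutation tests (SciPy 1.17.1), clusters Scanpy 1.11.5. Intervals are exact (Clopper-Pearson or Poisson) at 95% and, like the limit of 3 counts, cover counting error only. In data simulated for this comparison, 4-fold changes were called for 100% of raised and 90% of lowered genes, 2-fold changes for 52% and 24%, and 0.089% of unchanged genes. The simulated sums were drawn independently with the same dispersion for every gene. They held no pool effect and no mouse effect shared between pools, so these shares may not hold for the real sums. Alternatives were library totals, no filter, no block, DESeq2 1.42.0, limma 3.58.1, other tumour cells or sums, and leaving out each pool or mouse.

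Members and gene lists were chosen with earlier results of these data known. Genes named were the 15 highest and 15 lowest called genes that averaged at least 20 CPM in 4T1 or in tumour sums and lay outside all mice in 3 pools, without predicted, mitochondrial, ribosomal and histone genes. Up to 3 called members of each list with the smallest p, the given markers and cell state genes, and the 8 highest and 8 lowest ratios between pools were added, and the text gives a selection. Other genes named were chosen after their values were seen. Some genes are not reported here.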

Additional observations from a re-analysis of the deposited data

Results flagged for a closer look

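Among 110 groups of 4 tumour sums (55 genes named above, on days 0 and 3), 6 held a sum far from the other 3 by Dixon's test at 95%, and chance flags about 1 in 20 groups. Cdh1 was at 82.7 CPM in mouse 4 on day 3, and at 38.4 to 44.5 CPM in the other mice. Cdkn2a was at 1345 CPM in mouse 3 on day 3, and at 1139 to 1166 CPM in the others. Krt17 was at 589.4 CPM in mouse 2 on day 3, and at 423 to 449 CPM in the others. Krt18 was at 1055 CPM in mouse 4 on day 0, and at 1946 to 2066 CPM in the others. Trp53 was at 121.9 CPM in mouse 4 on day 3, and at 157 to 161 CPM in the others. Twist1 was at 84.8 CPM in mouse 2 on day 0, and at 7.36 to 17.5 CPM in the others. The 4T1 groups, with 3 sums, were not tested this way.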

How the results depend on the processing

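With library totals 1391 genes were higher in 4T1, 684 of them by 2-fold or more, and 6159 were lower. With 1 tumour sum per pool and the pool as a replicate block 1783 were higher and 2855 lower, and without the replicate block 2268 were higher and 3212 lower. Leaving out a pool or a mouse gave 2192 to 3180 higher and 2787 to 3970 lower genes. Of 141 genes covered by the naming rule 135 were called, and 124 of them were called under all 23 alternatives. Most of the 141 were chosen because they were called, so these counts do not describe all genes. Of all 6606 calls, 4377 were shared with 1 tumour sum per pool. With 4 mice against 3 4T1 sums 5054 were shared, and without the replicate block 5444. Pdgfra turned to 7.65 without cells holding a UMI of another cell type. That step leaves out every tumour cell with a Pdgfra UMI but no 4T1 cell, so this value is fixed by the step. Signs turned for uncalled genes. Cdh1 was at -0.37 with library totals, -0.11 without the replicate block, -0.040 with 4 mice against 3 sums, -0.30 with Matrigel cells, -0.018 without cells with a UMI of another cell type, -0.13 without the day 5 4T1 sum, and -0.13 to 0.32 when a pool or mouse was left out. Fn1 was at 0.68 with Matrigel cells and Krt18 at -0.077 with library totals. Krt8 was at 0.093 with collagen cells and at -0.36 to 0.21 when a pool or mouse was left out; the cause was not tested. Between 4T1 pools a pseudocount of 1 CPM gave 469 genes higher and 537 lower for day 3 over day 0, 698 lower for day 5 over day 3 and 70 lower for day 5 over day 0. A pseudocount of 20 CPM gave 136 and 132, 139 and 179, and 5 lower. Library totals gave 143 higher for day 3 over day 0, and 498 higher and 157 lower for day 5 over day 3. The 19 cells of day 5 limit low genes there.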
